A study of Mus musculus with 6 samples.

Results

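The regulators of the integrated stress response and the unfolded protein response were examined as 8 genes: Atf4, Ddit3, Trib3, Asns, Xbp1, Atf6, Ern1 and Herpud1. They were found by their gene symbol in the platform annotation, which named all 8 among 12393 genes, on 18 of the 22690 probe sets. The study compared 3 mouse cell lines derived from lung adenocarcinoma, KPR4, KPR5 and KPR8, of the strain background C57/B6-129SvJae, each with 1 vehicle array (ethanol, EtOH) and 1 array after 4-OH tamoxifen at 250 nM for 24 h. Per the labels, the drug reactivates p53 expression in these lines, and the sources used here do not give the allele behind this. No line without a restorable p53 is among the 6 arrays, so an effect of the drug itself and an effect of restored p53 cannot be told apart.

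In the integrated stress response, kinases that sense amino acid shortage, haem shortage, viral RNA or misfolded protein phosphorylate the initiation factor eIF2, which slows protein synthesis while translation of Atf4 mRNA rises. ATF4 then switches on genes of amino acid supply such as Asns, and of feedback and cell death such as Ddit3 and Trib3. In the unfolded protein response, the endoplasmic reticulum (ER) sensors IRE1 (gene Ern1), ATF6 and PERK (gene Eif2ak3) respond to misfolded protein: IRE1 splices Xbp1 mRNA, ATF6 is cleaved in the Golgi, and PERK phosphorylates eIF2. Translation of Atf4, splicing of Xbp1 and cleavage of ATF6 are not read by these probe sets, which measure mRNA level. p53 in turn halts the cell cycle and holds back growth.

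The p53 response was present on the treated arrays: 6 of 7 measured p53 targets rose in limma, a linear model with moderated variances. Cdkn1a, the cell cycle inhibitor p21, rose by 4.63 ± 0.27 on the log2 scale (adjusted p = 1.8e-08), and Mdm2, the ligase that degrades p53, by 2.94 ± 0.13. All 8 general epithelial markers passed the expression filter (log2 4 or above on at least 3 arrays), but of 10 lung epithelial markers only Aqp5 and Abca3 did. With treatment 2 of the 8 epithelial markers rose, the junction genes Cldn4 (0.89) and Cdh1 (0.30), and Epcam, an adhesion molecule, fell (-0.37), while their summed level on the log2 scale ran from 14.70 to 14.94 with vehicle and from 14.57 to 14.97 with the drug. Over all genes tested, 10.5% were higher and 8.94% lower. The calls of Cdh1 (adjusted p 0.0700 to 0.161) and Epcam (0.0927 to 0.259) were lost with any 1 line left out. Nkx2-1, the lung lineage factor, stayed at or below 2.83, and Sftpc at or below 3.13. Endothelial markers passed in 0 of 7, and leukocyte and fibroblast markers each in 3 of 8, while the pan-leukocyte gene Ptprc did not exceed 2.05. Of the leukocyte markers Cd68 rose, by 1.02, from a mean of 3.61, under the filter level, to 4.63. It passed the filter only through its treated arrays. The summed level of the leukocyte markers on the log2 scale ran from 7.25 to 9.17 with vehicle and 7.33 to 9.40 with the drug. The part of other cell types in the results was not tested, and in such bulk RNA fewer cells of a type and less RNA per cell cannot be told apart. For comparison, 27 Bacillus subtilis control probe sets, which match no mouse transcript, lay between 1.13 and 2.84. Array medians lay between 4.56 and 4.63. RNA integrity was read from Gapdh control probe sets as 3' signal less 5' signal, which changed with treatment by 0.24, 0.29 and -0.40 in KPR4, KPR5 and KPR8. The same difference for beta-actin changed by 0.16, 0.39 and -0.07.

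Among the 8 regulators, 1 was higher and 1 lower with 4-OH tamoxifen: Xbp1 rose 1.45-fold and Asns fell 1.52-fold. Neither Atf4 nor Ddit3, Trib3, Atf6 or Herpud1 passed the threshold (limma, Benjamini-Hochberg adjusted p under 0.05), and Ern1 was below the expression filter. Of all 7644 genes tested, 10.5% were higher and 8.94% lower, so 1 of 7 in each direction is close to the background. Between KPR4, KPR5 and KPR8, 4 of the 7 differed: Atf4, Asns, Xbp1 and Herpud1 (limma's moderated F-test). That share, 57.1% of only 7 genes, is also not far from the background, since 42% of all genes differed between the lines. The threshold is the same for both tests, and each gene is represented by its probe set of highest mean. The 3 lines, with 1 culture per treatment each, are the replicates. Each p-value rests on the spread of the response between them, moderated by a variance drawn from other genes. That shared variance carries 12.9 degrees of freedom against 2 from the gene itself, so it weighs more than the gene's own spread.

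**Figure D1:**
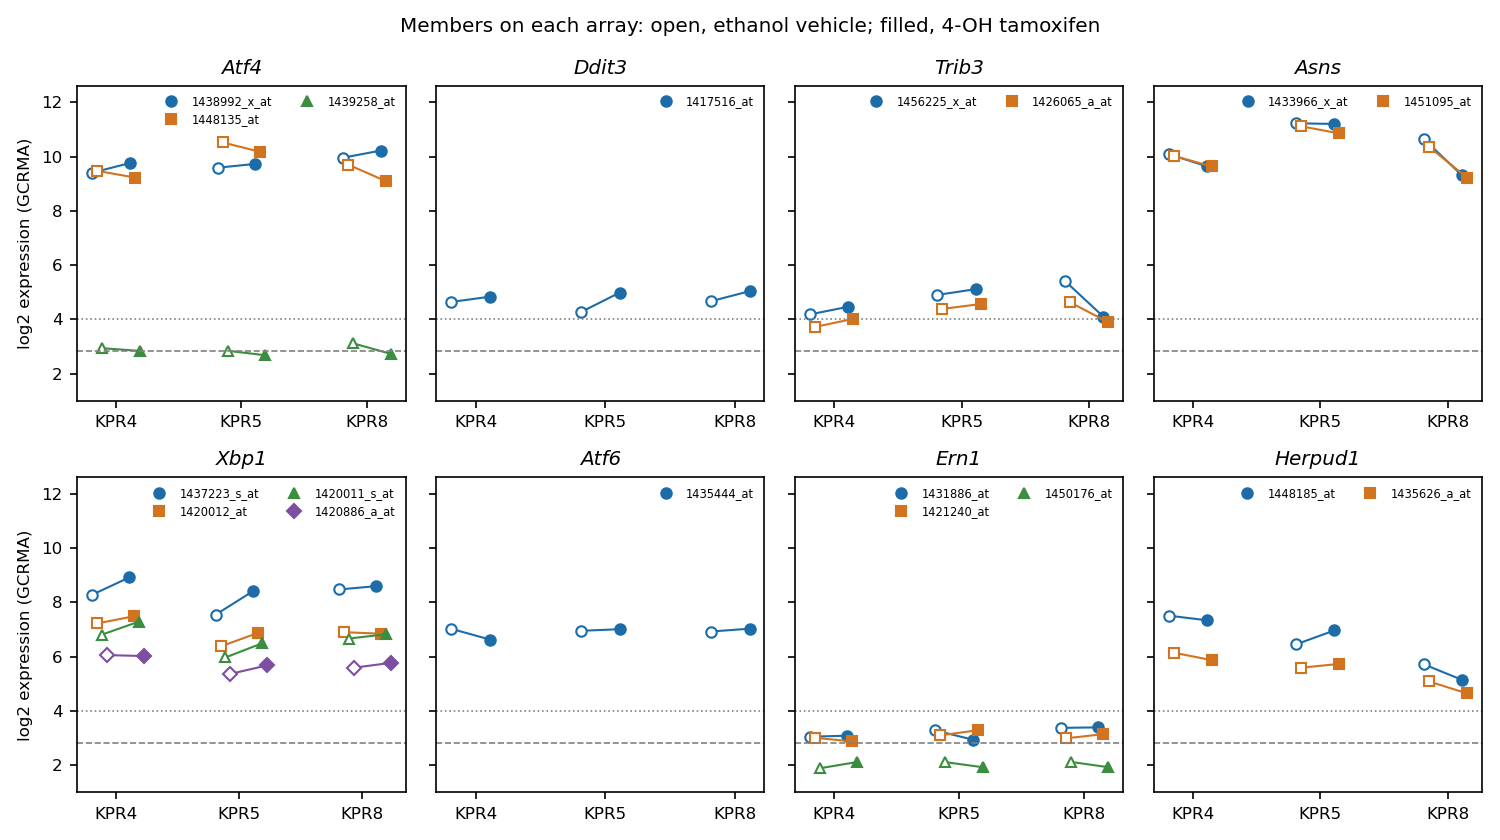
Log2 expression (y axis) of every probe set of the 8 genes in KPR4, KPR5 and KPR8 (x axis); open symbols are vehicle, filled symbols 4-OH tamoxifen, colours and shapes are probe sets, the dotted line is the filter level of 4 and the dashed line the highest Bacillus subtilis control at 2.84. The pair of Atf4 probe sets near 10 slope in opposite directions, Asns falls furthest in KPR8, and the 3 Ern1 probe sets stay below the filter on every array.

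Asns encodes asparagine synthetase, which makes asparagine from aspartate and glutamine and is a classic target of ATF4. On its probe set 1433966_x_at the vehicle arrays of KPR4, KPR5 and KPR8 gave log2 levels of 10.09, 11.23 and 10.65, and the treated arrays 9.64, 11.20 and 9.31. The treated array was the lower in each line, with changes of -0.45, -0.02 and -1.34 in that order, and the ranges of the groups overlapped. The mean log2 change was -0.60 ± 0.18 (SE, n = 3 lines; limma adjusted p = 0.0317, 95% interval -0.996 to -0.21). The other probe set, 1451095_at, gave -0.60 ± 0.16, with changes of -0.39, -0.26 and -1.14 in the same order of lines. The call rested on KPR8: without that line the change was -0.24 (adjusted p = 0.297), and in KPR8 the 3' less 5' difference changed with treatment by -0.40 for Gapdh and -0.07 for beta-actin. Whether RNA integrity had a part in the result was not tested.

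The gene lies at chr6:7675165-7693209 (GRCm38.p6). A window from 250 bases before to 50 bases after the RefSeq start of each gene was searched on both strands for short motifs known from these pathways, and 7 of the 8 genes had a window. The core of the amino acid response element bound by ATF4 with C/EBP partners, TGATGNAA, occurred in 3 of the 7, Asns, Trib3 and Herpud1, against 3.97% of 32851 windows of all genes. The 3 windows shown are those with this match. Of these 3 genes, Asns was called lower with treatment, and Trib3 and Herpud1 were not called. The windows of Atf4, Ddit3, Xbp1 and Ern1 held none of the motifs. Whether a motif bears on the change of its gene was not tested. Capitals mark motif matches: in the Asns window the match began at position -23 from the start, in Trib3 it lay on the opposite strand 14 bases after the start, and in Herpud1 on the opposite strand at position -112 from the start.

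Asns (chr6:7693160-7693459, - strand): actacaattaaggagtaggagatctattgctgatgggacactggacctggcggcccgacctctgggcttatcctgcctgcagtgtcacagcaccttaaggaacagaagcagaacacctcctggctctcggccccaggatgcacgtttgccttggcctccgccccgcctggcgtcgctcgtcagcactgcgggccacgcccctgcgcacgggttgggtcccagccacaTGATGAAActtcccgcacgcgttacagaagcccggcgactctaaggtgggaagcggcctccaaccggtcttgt

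Trib3 (chr2:152344011-152344310, - strand): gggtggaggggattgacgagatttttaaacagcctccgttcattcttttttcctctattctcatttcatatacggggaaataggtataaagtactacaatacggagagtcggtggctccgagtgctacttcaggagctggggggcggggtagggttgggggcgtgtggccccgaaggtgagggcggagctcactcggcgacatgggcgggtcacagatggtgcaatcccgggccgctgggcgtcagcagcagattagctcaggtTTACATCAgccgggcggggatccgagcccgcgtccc

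Herpud1 (chr8:94386179-94386478, + strand): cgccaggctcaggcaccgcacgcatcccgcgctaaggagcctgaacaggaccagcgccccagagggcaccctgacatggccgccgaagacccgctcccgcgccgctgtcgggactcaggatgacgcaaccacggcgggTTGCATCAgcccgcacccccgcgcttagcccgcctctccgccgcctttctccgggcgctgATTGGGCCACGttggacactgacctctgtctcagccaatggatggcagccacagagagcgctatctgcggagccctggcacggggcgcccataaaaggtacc

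The second run of capitals in Herpud1, ATTGGGCCACG, matched the ER stress response element II, ATTGGNCCACG, through which ATF6 and XBP1 are known to act. That motif was in 0.0365% of all windows and in 1 of the 7. The longer ER stress response element, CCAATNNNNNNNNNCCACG, was in 0.119% of all windows, the XBP1 element core TGACGTGG in 0.676%, and the cAMP response element TGACGTCA in 1.79%, and none of these was in the 7. Positions of matches describe letters in these windows and no binding was measured. The sequences are from RefSeq.

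Atf4 encodes the central transcription factor of the integrated stress response, and its direction with treatment depended on the probe set. Probe set 1438992_x_at, in KPR4, KPR5 and KPR8, stood at 9.41, 9.59 and 9.96 on vehicle arrays and at 9.76, 9.73 and 10.22 on treated ones. For probe set 1448135_at the corresponding levels were 9.47, 10.52 and 9.70, then 9.23, 10.17 and 9.10. The former was higher after treatment in 3 of 3 lines and the latter lower in 3 of 3, and on both the groups overlapped. The changes were 0.25 ± 0.13 (limma adjusted p = 0.183, 95% interval -0.02 to 0.52) for the former and -0.40 ± 0.13 (adjusted p = 0.0564) for the latter, the second adjusted over 13169 probe sets rather than over genes. Neither passed the threshold. Names ending in _x_at mark sets in which some probes can match other transcripts. The sets that represent Asns (1433966_x_at) and Trib3 (1456225_x_at) have this ending too, and the other Asns set, 1451095_at, does not. The remaining Atf4 probe set, 1439258_at, lay between 2.68 and 3.12, with 4 of 6 arrays above the highest control.

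The same probe sets also disagreed on the lines. On 1448135_at KPR5 was the highest line under both treatments, whereas on 1438992_x_at KPR8 was, and across the 6 arrays the pair correlated at -0.44. Probe set 1448135_at correlated with the Asns probe sets at 0.96 (1433966_x_at) and 0.98 (1451095_at), and 1438992_x_at at -0.44 and -0.52. The 10 genes closest to 1448135_at among the 7644 lay between 0.989 and 0.996, and Asns was not among them. They were sought after the values of this probe set were seen. These values describe 6 arrays that come 2 to a cell line, and the lines differ in most of these genes. Both Trib3 probe sets correlated with 1448135_at less closely, at 0.65 and 0.68, and all 4 Xbp1 probe sets ran against it, between -0.89 and -0.73.

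**Figure D2:**
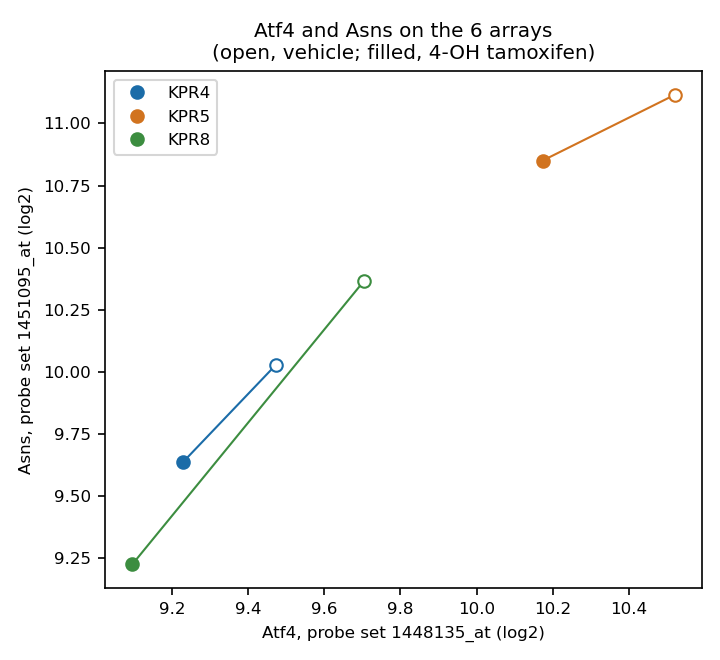
Log2 level of Asns (1451095_at, y axis) against Atf4 (1448135_at, x axis) on the 6 arrays; lines join the open vehicle and filled 4-OH tamoxifen point of a cell line. In each line the treated point lies lower on both axes, and both KPR5 points lie above those of KPR4 and KPR8.

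Ddit3 encodes CHOP, a transcription factor that promotes cell death when ER stress persists and a partner of C/EBP proteins. Levels on its single probe set were 4.64 in KPR4, 4.27 in KPR5 and 4.67 in KPR8 under ethanol, and 4.84, 4.99 and 5.04 under the drug. All 3 treated arrays were above all 3 vehicle arrays, which held for 1 of the 14 member probe sets past the filter. Of all 13169 probe sets past it, 6.49% had every treated array above every vehicle array and 8.54% every one below, so this count is close to the background. The change of 0.43 ± 0.16 did not pass the threshold (limma adjusted p = 0.0771, 95% interval 0.08 to 0.77). At an unadjusted p under 0.05 it would stand with Xbp1 as 1 of 2 higher genes among the 7 tested. At that level 1329 of all 7644 genes were higher. The F-test of Ddit3 between lines did not pass either (adjusted p = 0.617).

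Trib3 encodes a pseudokinase that binds ATF4 and AKT and damps both. Vehicle levels of 4.19, 4.90 and 5.42 on probe set 1456225_x_at stood against 4.47, 5.12 and 4.11 after treatment, in KPR4, KPR5 and KPR8. It was higher after treatment by 0.28 in KPR4 and 0.21 in KPR5, and changed by -1.31 in KPR8, where the vehicle array had the highest of the 6 values and the treated array the lowest. The other probe set, 1426065_a_at, had the same pattern of signs, with 0.30, 0.18 and -0.73. The mean change, -0.27 ± 0.24, did not pass (limma adjusted p = 0.480, 95% interval -0.79 to 0.25). Whether the lines responded differently could not be tested, since each has a single array per treatment.

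On the ER side, Xbp1 encodes the transcription factor made after IRE1 splices its mRNA, a driver of ER expansion. Probe set 1437223_s_at went from 8.28 to 8.92 in KPR4, from 7.55 to 8.40 in KPR5 and from 8.47 to 8.60 in KPR8. The treated array was higher in each line, by 0.63, 0.86 and 0.12, although KPR5 with the drug stayed below KPR8 without it. The mean change was 0.54 ± 0.17 (limma adjusted p = 0.0343, 95% interval 0.18 to 0.89). The other probe sets gave smaller changes that did not pass: 0.39 ± 0.17 for 1420011_s_at, 0.24 ± 0.17 for 1420012_at and 0.15 ± 0.17 for 1420886_a_at, so 1 of 4 was called, where 8.01% of all probe sets were called higher and 7.81% lower. Leaving out KPR4, the change was 0.49 with an adjusted p of 0.148, and leaving out KPR5 it was 0.38 with 0.220. The mean of the 4 probe sets gave 0.33 (adjusted p = 0.140).

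Neither ER sensor among the 8 gave a call. Atf6, a membrane-bound transcription factor that is released by cleavage, stood at 7.03, 6.95 and 6.93 under ethanol and at 6.63, 7.01 and 7.03 under the drug, a change of -0.08 ± 0.17 (limma adjusted p = 0.804, 95% interval -0.45 to 0.29). KPR4 with the drug was the lowest array and the other 5 lay between 6.93 and 7.03. The 3 probe sets of Ern1, encoding the sensor kinase and nuclease IRE1, lay between 1.89 and 3.40, below the filter on every array. In a limma fit without the filter their changes were -0.09 ± 0.12, 0.07 ± 0.12 and -0.05 ± 0.10, and the lowest adjusted p of the 3 was 0.734.

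Herpud1 encodes an ER membrane protein of the degradation machinery, induced by both ATF6 and ATF4. Probe set 1448185_at moved from 7.51 to 7.34 in KPR4, from 6.45 to 6.97 in KPR5 and from 5.72 to 5.15 in KPR8. The lines kept the same order under both treatments, with KPR4 the highest and KPR8 the lowest, and the line means over 2 arrays were 7.43, 6.71 and 5.43 (limma F-test adjusted p = 6.3e-05). The other probe set, 1435626_a_at, kept that order too (adjusted p = 0.0033 over probe sets, of which 38.8% differed between lines). With treatment the gene changed by -0.17, 0.51 and -0.57 in that order of lines, a mean change of -0.08 ± 0.20 (adjusted p = 0.835).

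Line means placed the other differing genes in other orders. For Asns they were 9.87 in KPR4, 11.21 in KPR5 and 9.98 in KPR8 (limma F-test adjusted p = 0.00043), with KPR5 the highest. That call rested on KPR5, without which the adjusted p was 0.685. For Xbp1 KPR5 was the lowest, at 7.97 against 8.60 and 8.54 (adjusted p = 0.0371), and without KPR5 the adjusted p was 0.835, and without KPR4 0.0631. For Atf4 on 1438992_x_at KPR8 was the highest, at 10.09 against 9.58 and 9.66 (adjusted p = 0.0314, and 0.701 without KPR8 and 0.107 without KPR4), with the other order on 1448135_at described above (adjusted p = 0.00067 over probe sets).

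**Figure D3:**
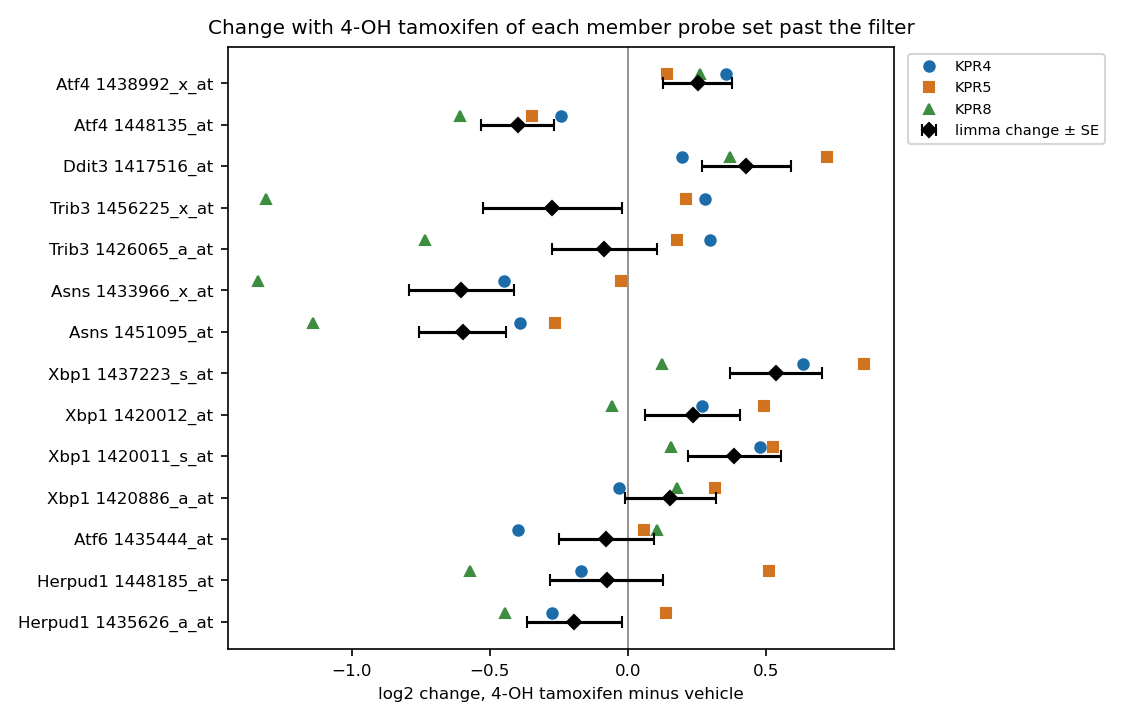
Log2 change with 4-OH tamoxifen (x axis) of the 14 member probe sets past the filter (y axis); coloured symbols are the 3 lines and black diamonds the limma mean with its standard error. Green KPR8 symbols lie furthest to the left for Asns and Trib3, and the Atf4 rows lie on opposite sides of 0.

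Genes with the profile most like each of the 4 regulators that spanned log2 1 or more over the 6 arrays were sought among the 7644 by Pearson's correlation. For Asns they were Puf60, a splicing factor (0.997), and Pfkp, the platelet-type phosphofructokinase of glycolysis (0.996). For Trib3 they were Psmc5, a proteasome ATPase (0.988), and Zc3h15 (0.986), and for Xbp1 Bcap31, an ER membrane protein (0.982), and Igfbp4 (0.980). For Herpud1 they were D230025D16Rik (0.993) and B4gat1, a glycosyltransferase (0.992). The 6 arrays share 3 lines, and each pair named is the highest among all 7644 genes.

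Around the regulators, genes of amino acid supply were lower for many members. Of 23 measured ATF4-linked genes of amino acid synthesis and transport, 9 fell and 2 rose, with a median change of -0.27 where that of all genes was 0.00. Over all genes 8.94% fell and 10.5% rose. Mthfd2, a mitochondrial folate enzyme, went from 9.56 ± 0.84 to 8.38 ± 1.07 (SD, n = 3), and Slc7a5, the large neutral amino acid transporter, from 8.84 ± 0.55 to 7.73 ± 0.81. The changes in KPR4, KPR5 and KPR8 were -0.92, -0.63 and -2.02 for Mthfd2 and -0.73, -0.79 and -1.80 for Slc7a5 (limma adjusted p = 0.00099 and 0.0011). Shmt2, of mitochondrial serine catabolism, named like Chac1 after its values were seen, changed by -0.42, -0.27 and -2.05 (adjusted p = 0.0237). Chac1, a glutathione-degrading enzyme and a sensitive ATF4 target, changed by 0.15, 0.47 and -1.63 and did not pass (adjusted p = 0.461). The list's median by line was 0.08 in KPR4, -0.0023 in KPR5 and -0.56 in KPR8, against 0.01, 0.03 and -0.04 for all genes. The genes that rose were Sesn2, a brake on mTORC1 that is also a p53 target (1.06 ± 0.15, adjusted p = 0.00024), and Cbs, of transsulfuration (0.70 ± 0.23, adjusted p = 0.0425), which lost its call without KPR5 (0.29, adjusted p = 0.406) and had 0.14 on another probe set. Sesn2 averaged 3.73 with vehicle, under the filter level of 4, and 4.79 with the drug. It therefore entered the test only through its treated arrays. Without KPR8, 5 genes of the list fell and 3 rose, where 420 of all 7644 genes fell and 613 rose.

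The list of aminoacyl-tRNA synthetases, which charge tRNAs and include many ATF4 targets, also held Aimp1, Aimp2 and Xpot, which are not synthetases. It had 7 of 21 measured genes lower, Aimp2 among them, and 0 higher, where 8.94% of all genes were lower and 10.5% higher. At an unadjusted p under 0.05 it also had 0 higher, and its median was -0.33. Aimp2, a scaffold of the multi-synthetase complex, changed by -0.68 ± 0.13 (limma adjusted p = 0.0016), and Yars, for tyrosine, by -0.61 ± 0.17 (adjusted p = 0.0244), a call lost when KPR4 (adjusted p = 0.0846) or when KPR8 was left out (adjusted p = 0.154). The number lower was 1 without KPR8, 4 without KPR4 and 8 without KPR5. Of all 7644 genes, 420, 438 and 456 were lower in these fits, in the same order. Medians of this list were -0.21, -0.13 and -0.48 in KPR4, KPR5 and KPR8. As for Asns and Trib3, the lowest was in KPR8, a difference between lines that was not tested.

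**Figure D4:**
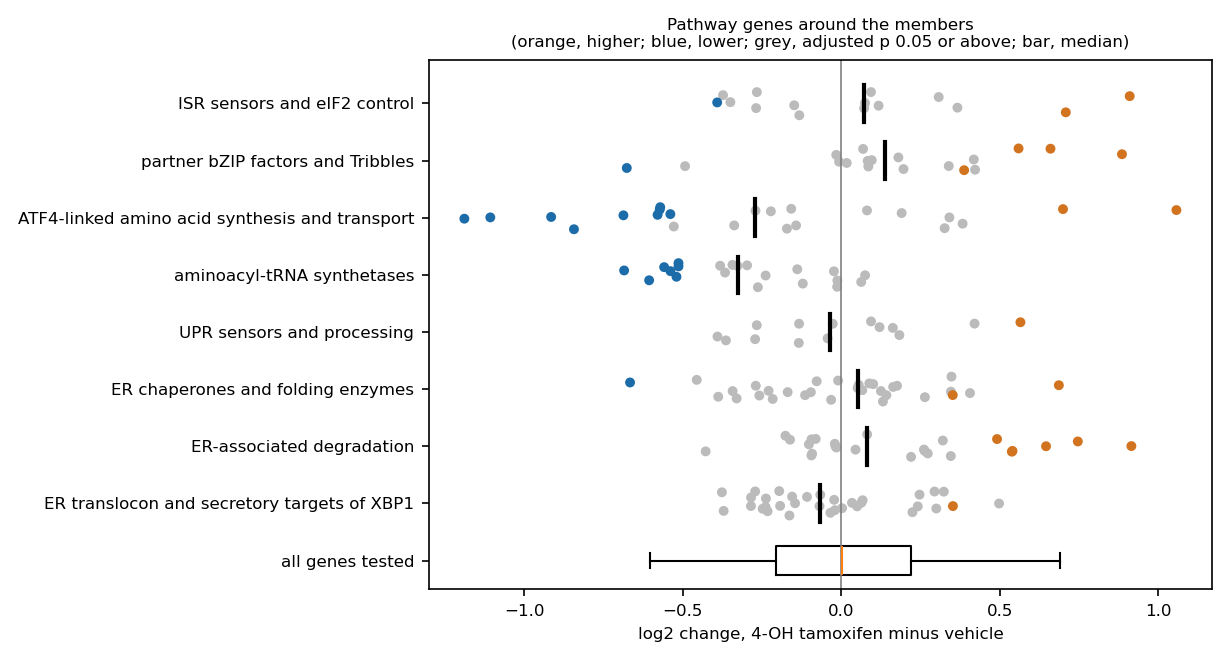
Log2 change with 4-OH tamoxifen (x axis, limma) of each measured gene in 8 pathway lists (y axis); the box shows all 7644 genes with its whiskers at the 5th and 95th percentiles, -0.60 and 0.69. Blue points, genes called lower, number 9 in the ATF4-linked amino acid list and 7 in the synthetase list, and orange points, called higher, number 6 in ER-associated degradation and 4 among the partner factors.

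Upstream of ATF4, 2 of 15 genes of eIF2 control rose and 1 fell, where 10.5% of all genes rose and 8.94% fell. Eif2ak3, encoding the sensor kinase PERK, rose from 5.91 ± 0.12 to 6.62 ± 0.16 (SD, n = 3), by 0.53, 0.88 and 0.72 in KPR4, KPR5 and KPR8 (limma adjusted p = 0.0080), though without KPR5 the adjusted p was 0.0587. The other eIF2 kinase genes did not pass: 0.08 ± 0.18 for Eif2ak1, 0.09 ± 0.18 for Eif2ak2 and -0.27 ± 0.19 for Eif2ak4, which senses uncharged tRNA. Impact, an inhibitor of that last kinase, rose by 0.91 ± 0.19 (adjusted p = 0.0032, and 0.0523 without KPR8). Ppp1r15b, a subunit of the eIF2 phosphatase, changed by -0.39 ± 0.12 (adjusted p = 0.0365), a call lost with any 1 line left out (adjusted p 0.0505 to 0.212). Its stress-induced counterpart Ppp1r15a changed by 0.31 ± 0.15 (adjusted p = 0.156).

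Among 18 partner bZIP factors, Tribbles and related stress genes, 4 rose and 1 fell, where 10.5% of all genes rose and 8.94% fell. Crem, a cAMP-responsive factor, rose by 0.89 ± 0.18 (limma adjusted p = 0.0024, and 0.0677 without KPR8). Its mean was 3.81 with vehicle, under the filter level, and 4.69 with the drug. Jun, of AP-1, rose by 0.66 ± 0.18 (adjusted p = 0.0166), with 0.15 on another probe set and no call without KPR5 (adjusted p = 0.105) or KPR8 (adjusted p = 0.144). Cebpg, an ATF4 partner, changed by -0.68 ± 0.17 (adjusted p = 0.0124), but another probe set gave 0.17, and leaving out KPR4 or KPR8 raised the adjusted p to 0.105 or 0.0865. Atf3, itself induced by ATF4, changed by 0.42 ± 0.18 (adjusted p = 0.115).

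In ER-associated degradation, which returns misfolded proteins to the cytosol, 6 of 25 measured genes rose and 0 fell, where 10.5% of all genes rose and 8.94% fell. At an unadjusted p under 0.05, 1 gene of the list was lower, and the median change was 0.08. Fam8a1, a cofactor of the Hrd1 ligase complex, rose from 8.72 ± 0.27 to 9.64 ± 0.13 (limma adjusted p = 0.00036), and Selenos, a selenoprotein of the same machinery, from 9.21 ± 0.11 to 9.95 ± 0.16 (adjusted p = 0.00093). The lowest change among their probe sets was 0.41 for Fam8a1 and 0.34 for Selenos. With KPR4 or KPR8 left out 3 genes of this list rose and 0 fell, and with KPR5 left out 4 rose and 1 fell. Of all 7644 genes, 533 rose and 438 fell without KPR4, 613 and 420 without KPR8, and 525 and 456 without KPR5.

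Of 31 ER chaperones and folding enzymes, 2 rose and 1 fell, where 10.5% of all genes rose and 8.94% fell. Dnajb9, the ER cochaperone ERdj4 and a target of XBP1, rose by 0.69 ± 0.15 (limma adjusted p = 0.0052, and 0.0666 without KPR4), and Canx, the lectin chaperone calnexin, by 0.35 ± 0.10 (adjusted p = 0.0288, 0.219 without KPR4 and 0.103 without KPR8). Fkbp2, an ER prolyl isomerase, changed by -0.67 ± 0.15 (adjusted p = 0.0069, and 0.0515 without KPR5). The master chaperone gene Hspa5, encoding BiP, changed by 0.26 ± 0.10 and Hsp90b1, encoding GRP94, by 0.35 ± 0.12, each higher in 3 of 3 lines and neither past the threshold (adjusted p = 0.0741 and 0.0520). Of 33 genes of the translocon and secretory route 1 rose, Srp14 of the signal recognition particle (0.35 ± 0.10, adjusted p = 0.0217), with probe sets from -0.06 to 0.57 and no call without KPR4 (adjusted p = 0.261) or KPR5 (adjusted p = 0.0511). None of these genes fell, though 4 were lower at an unadjusted p under 0.05.

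In the remaining list, of sensors and their processing, 1 of 14 rose and 0 fell, with 3 lower at an unadjusted p under 0.05 (limma). The gene was Creb3, an ER-anchored factor related to ATF6, at 0.57 ± 0.15 (limma adjusted p = 0.0168), a call lost without KPR4 (adjusted p = 0.105) or KPR5 (adjusted p = 0.116). The share of genes higher was 24% in ER-associated degradation, 22.2% among the partner factors and Tribbles, 13.3% in eIF2 control, 8.7% in amino acid supply, 7.14% among the sensors, 6.45% among chaperones and 3.03% in the translocon list. The share lower was 39.1% in amino acid supply and 33.3% in the synthetase list and at most 6.67% in the other 6 lists. Of all genes 10.5% were higher and 8.94% lower. At an unadjusted p under 0.05, 1329 of all 7644 genes were higher and 1174 lower. Of the 19 pathway genes named by rule, 6 kept their call with each line left out in turn: Sesn2, Mthfd2, Slc7a5, Aimp2, Fam8a1 and Selenos. Among these, Sesn2 had passed the filter only through its treated arrays.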

How the data were processed

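RNA from 6 cultures (growth medium with 10% serum) was amplified from 100 ng. The authors deposited log2 expression per probe set; the submitters' processing notes name R 2.11.0 and GCRMA 2.20.0. GCRMA equalises the arrays' distributions, so a change shared by most genes would not show, and the values come without detection calls. Symbols came from the platform annotation, 1 for 20380 probe sets, several for 691 and none for 1555, beside 64 controls. No gene was named from a set with several symbols.

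Probe sets at log2 4 or above on 3 of 6 arrays were kept, which left 7 of the 8 members and 14 of their 18 probe sets. Fits used limma 3.58.1 in R 4.3.3 with terms for line and treatment, a variance trend and Benjamini-Hochberg adjustment over all genes at 0.05, 2-sided. A prior of 12.9 degrees of freedom joined 2 residual ones. The line term follows the design: vehicle and treated arrays of a line deviated together (correlations of 0.876, 0.737 and 0.761). The code was tested on simulated data.

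Members and lists were chosen with earlier results of these data known. Named were, per pathway list, up to 2 called genes with the largest rise and 2 with the largest fall. Alternatives were filters, probe set choice, quantile normalization, no line term, no trend and each line left out. The number of arrays limits the precision.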

Additional observations from a re-analysis of the deposited data

Results flagged for a closer look

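In 3 of the 7 measured regulators the lines changed in opposite directions with treatment, each line being 1 array per treatment, and the difference was not tested. The largest minus the smallest change between lines was 1.59 on the log2 scale for Trib3 (KPR4 against KPR8), 1.09 for Herpud1 (KPR5 against KPR8) and 0.50 for Atf6 (KPR8 against KPR4). For Trib3 and Herpud1 the other probe set had the same sign in each line.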

How the results depend on the processing

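With limma, the count of regulators higher was 0 in place of 1 without a filter, with probe sets of a gene averaged and with no replicate block (no line term, so unpaired), and 0 to 1 with 1 line left out, being 0 without KPR4 or KPR5. The count lower was 0 without a filter, with the probe set of largest spread, with no replicate block and with no variance trend, and 0 to 1 with 1 line left out, being 0 without KPR8. At an unadjusted p under 0.05 these counts were 2 higher and 1 lower without a filter, and 0 and 0 with no replicate block. The count differing between lines was 2 in place of 4 without a filter and with no variance trend, where Atf4 and Xbp1 were lost. It was 2 to 4 with 1 line left out. Without KPR8 it stayed at 4, but Atf4 was lost (F-test adjusted p = 0.701) and Trib3 gained (0.0237). Only Herpud1 differed between lines under every setting with this test. The change of Atf4 turned to -0.073 with its probe sets averaged and to -0.40 with the one of largest spread, which is 1448135_at. With 1 line left out the change of Trib3 ran from -0.55 to 0.25 (without KPR8), of Atf6 from -0.17 to 0.083 (without KPR4) and of Herpud1 from -0.37 to 0.17 (without KPR8). Such fits have 1 residual degree of freedom, and without KPR4 limma took the variances as known from the trend alone, so those p-values lean on other genes. Quantile normalization and the stricter filter (log2 6) changed no count of called regulators. The deposited values were already equalised between arrays, so quantile normalization could change little. The stricter filter dropped Ddit3 and Trib3. With no replicate block 22 of all genes were higher and 1 lower, none of them in the 8 pathway lists.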
